A study of Homo sapiens with 12 samples.

Results

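The mRNA decay machinery was examined as 45 genes out of the 60675 gene rows of the deposited tables. The genes were taken by name as 14 genes of deadenylation, 13 of decapping and 5'-3' decay, 8 of nonsense-mediated decay and 10 of the RNA exosome, and the readouts were the level and the chase slope of their own mRNAs. All 45 genes were present in both tables. All 45 passed the low-count filter in RNA-seq and 43 passed it in BRIC-seq, where LSM2 and EXOSC5 had too few counts.

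The data come from A375, a human melanoma cell line, and from a derivative of it that overexpresses the microRNA gene MIR211 and is called the MIR211 line below. Total RNA was sequenced from 2 libraries of each line, a and b (RNA-seq). For BRIC-seq, cells were fed 5-bromouridine for 24 h, and the BrU-labelled RNA was pulled down with a kit and sequenced at 0, 1, 3 and 6 h after labelling, with 1 library per line and time (8 libraries). The labels do not say how MIR211 was introduced, whether the MIR211 line is 1 clone, or whether a line's libraries were made from independent cultures.

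Most cytoplasmic mRNAs lose their poly(A) tail first, through the PAN2-PAN3 and CCR4-NOT complexes. The shortened mRNA is then decapped by DCP2 and its activators and degraded from the 5' end by XRN1, or degraded from the 3' end by the exosome. Nonsense-mediated decay, built around the helicase UPF1 and the kinase SMG1, sends mRNAs with premature stop codons into the same routes, and it also restrains several of its own factors.

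The targeted gene MIR211 had 0 counts in each A375 RNA-seq library, 36 in library a of the MIR211 line and 18 in its library b. The RNA-seq libraries held 20847481 to 34130525 counts and the BRIC-seq libraries 2671651 to 7279038 counts. Of the melanocyte markers, SOX10 was at 135 to 232 CPM (counts scaled to a common library size) in the RNA-seq libraries. MITF was at 253 and 244 CPM in A375 and at 38.8 and 49.0 CPM in the MIR211 line, PMEL at 13.3 and 7.93 against 3.86 and 3.56 CPM, and S100B at 32.6 and 29.0 against 94.6 and 100.1 CPM, while MLANA and TYR had at most 7 counts in any RNA-seq library. The 8 melanocyte markers summed to 558 to 575 CPM in A375 and 452 to 474 CPM in the MIR211 line. Of the markers of other cells, 5 fibroblast genes summed to 26.1 and 61.3 CPM in A375 and 26.9 and 25.8 CPM in the MIR211 line, 3 endothelial genes to 3.58 to 9.19 CPM, 3 leukocyte genes to 0.809 to 2.95 CPM and 2 keratinocyte genes to at most 0.55 CPM. The fibroblast sum holds opposite differences. COL1A2 was at 17.2 and 51.0 CPM in A375 and 0.236 and 0.518 CPM in the MIR211 line. LUM (4.28 and 5.53 against 12.3 and 11.9 CPM), PDGFRB (4.42 and 4.66 against 12.9 and 11.8 CPM) and DCN were higher in the MIR211 line. KRT5, PTPRC, CD3E and PECAM1 were at 0 in all 4 RNA-seq libraries. The part of these line differences in the decay genes was not tested. The 45 genes took 0.475%, 0.513%, 0.434% and 0.258% of all counts at 0, 1, 3 and 6 h in A375, and in the MIR211 line 0.489%, 0.505%, 0.433% and 0.265%, most at 1 h and least at 6 h. The share of mitochondrially encoded RNA rose in the same libraries, from 22.2% to 34.1% (A375) and from 18.1% to 32.4% (MIR211 line). With the mitochondrially encoded genes left out of the scaling, all 25 decay genes that passed for the chase slope over both lines passed again. Any other part of that share in the chase slopes was not tested.

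Because the lines differ in miR-211, its sequence and its matches among the decay genes are shown first. The mature miRNA is given as RefSeq lists it (human assembly GRCh38.p14, chromosome 15, positions 31065095 to 31065116, minus strand), with the seed, bases 2 to 8, in capitals.
hsa-miR-211-5p: uUCCCUUUgucauccuucgccu
A match to these 7 seed bases, AAAGGGA on the mRNA strand, was found in the 3' UTR of the canonical GENCODE 44 transcript of 8 of the 45 genes (17.8%), compared with 17.3% of the 19559 genes that have an annotated 3' UTR. The 8 genes were CNOT1, CNOT6, CNOT7, CNOT9, DCP1A, XRN1, DIS3 and EXOSC9, and CNOT1, XRN1 and DIS3 each had 2 matches. The matches in XRN1, the cytoplasmic 5'-3' exonuclease, in CNOT1, the scaffold of the CCR4-NOT complex, and in DCP1A, a decapping activator, are shown because these genes sit at the centre of the 2 main steps. Capitals mark the match in each 30-base window, read 5' to 3'.
XRN1 first match: tcttctgaaaactccAAAGGGAaatttcag
XRN1 second match: tttattaaaaattcaAAAGGGAagactttt
CNOT1 first match: gtcagctctttatatAAAGGGAaaccagac
CNOT1 second match: cagtgggaatataggAAAGGGAaccaaatc
DCP1A: ttaaagctatgcagaAAAGGGAgctgttat
The RNA-seq log2 difference (MIR211 line over A375) of the 8 genes with a match lay between -0.27 (CNOT7) and 0.17 (XRN1), 4 of the 8 were below 0, and none passed the edgeR test. Their median was 0.03, compared with 0.06 for the 37 genes without a match. Over all genes with an annotated 3' UTR the medians were 0.01 with a match and 0.01 without. A match of letters says nothing on whether the site is bound.

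The first comparison asked whether the level of the decay mRNAs differs between the lines. In RNA-seq, 0 of the 45 genes passed the edgeR quasi-likelihood test at an adjusted p under 0.05, where 0.379% of the 19258 genes tested passed (73 genes). DESeq2 also called 0 of the 45, out of 749 genes, and 1 of the 45 (EXOSC8) had an unadjusted edgeR p under 0.05. The median log2 difference of the 45 was 0.06, compared with -0.00 for all genes tested, 26 were above 0 and 19 below, and 32 lay within 0.25 of 0. The standard errors ran from 0.16 to 0.62 with a median of 0.20, so that with 2 libraries per line small differences were not detectable. In RNA from bulk cultures, fewer cells with an mRNA and less of it per cell cannot be told apart. Both libraries of one line lay above both of the other for 17 of the 45 genes (37.8%), 12 with the MIR211 line above (20.7% of all genes tested) and 5 with A375 above (20.3%), and 41.0% of all genes tested had either pattern.

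**Figure D1:**
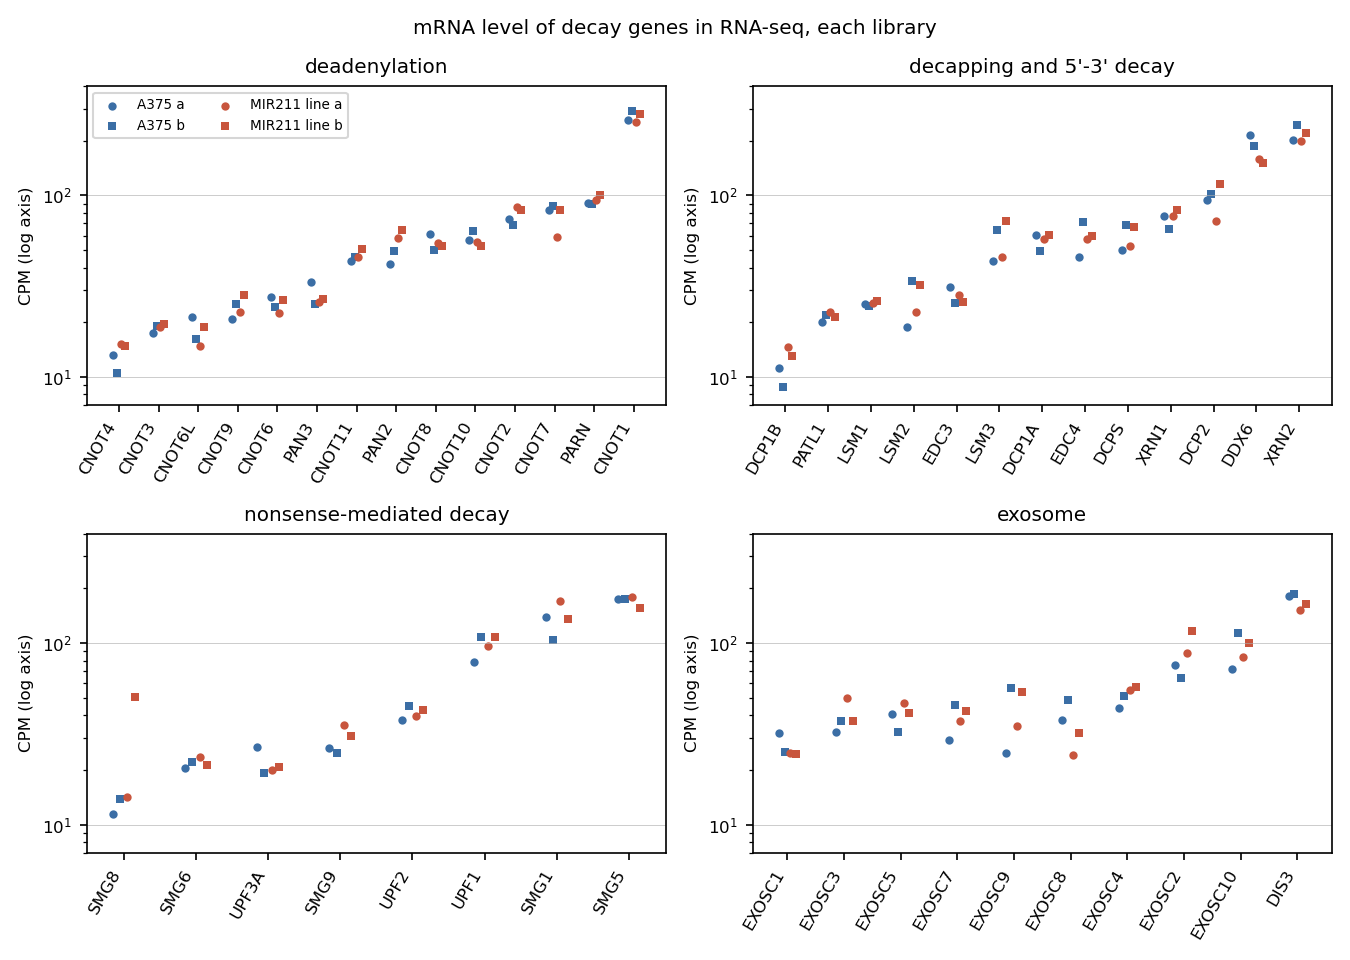
RNA-seq level (CPM, log axis) of the 45 decay genes in each of the 4 libraries, by group and ordered by the A375 mean. The 4 points of most genes lie close together, and SMG8 has 1 point, MIR211 line b at 50.5 CPM, far above its other 3 at 11.5 to 14.1.

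The deadenylation genes did not pass in either direction. PAN2, the catalytic subunit of the PAN2-PAN3 deadenylase, stood at 41.6 and 49.6 CPM in A375 a and b and at 58.4 and 64.1 CPM in the MIR211 line. Both MIR211 libraries were above both A375 libraries, and the log2 difference was 0.42 ± 0.18 (SE, edgeR quasi-likelihood test, adjusted p = 0.503). Per length of the canonical mRNA, the highest level in A375 was that of the scaffold CNOT1 at 32.7 CPM per kb, and the lowest that of CNOT6L, a catalytic subunit of the CCR4 type, at 2.15 CPM per kb. In the MIR211 line the values were 31.8 and 1.91 CPM per kb.

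Among the decapping genes, DDX6, the RNA helicase of P-bodies that links deadenylation to decapping, was at 216 and 186 CPM in A375 and 158 and 151 CPM in the MIR211 line. The lines did not overlap, and the log2 difference was -0.38 ± 0.17 (edgeR adjusted p = 0.528). The nuclear 5'-3' exonuclease XRN2 had the highest level of all 45 genes per length in A375, 65.2 CPM per kb, and DCP1B, a paralog of DCP1A, the lowest of its group at 4.94 CPM per kb. In the MIR211 line they stood at 61.3 and 6.80 CPM per kb.

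In the nonsense-mediated decay group, SMG8, a subunit that restrains the SMG1 kinase, was at 11.5 and 13.7 CPM in A375 and at 14.1 and 50.5 CPM in the MIR211 line. The largest log2 difference among the 45 genes, 1.35 ± 0.62 (edgeR adjusted p = 0.531), therefore rested on MIR211 line b, while line a differed little from A375 b. Its partner SMG9 was at 26.4 and 24.9 CPM in A375 and at 35.4 and 30.8 CPM in the MIR211 line, without overlap, and the log2 difference was 0.37 ± 0.18 (edgeR adjusted p = 0.557). Per length, SMG5, which recruits decay factors to phosphorylated UPF1, was highest in A375 at 38.2 CPM per kb and SMG6, the endonuclease of the pathway, lowest at 3.57 CPM per kb. In the MIR211 line they were at 36.7 and 3.75 CPM per kb.

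The exosome held the 2 smallest p-values in RNA-seq, in opposite directions. EXOSC8, a subunit of the core ring, was at 37.7 and 48.3 CPM in A375 and at 24.2 and 32.0 CPM in the MIR211 line, a log2 difference of -0.62 ± 0.24 (edgeR adjusted p = 0.454). EXOSC2, a cap subunit that binds RNA, was at 75.6 and 63.8 CPM in A375 and at 88.6 and 116 CPM in the MIR211 line, a log2 difference of 0.55 ± 0.21 (edgeR adjusted p = 0.461). The lines did not overlap for either gene. The other subunits of the ring and cap lay between -0.21 (EXOSC1) and 0.31 (EXOSC3), and the catalytic subunits DIS3 and EXOSC10 were at -0.21 and -0.02. For EXOSC9 the libraries of a line differed more than the lines did, with 24.8 and 56.3 CPM in A375 a and b and 35.0 and 53.4 CPM in the MIR211 line. Per length, EXOSC4 was highest in A375 at 56.4 CPM per kb and DIS3 lowest at 17.3 CPM per kb, with 66.5 and 14.9 CPM per kb in the MIR211 line. The median level per length in A375 was 33.9 CPM per kb in the exosome group, 11.2 in deadenylation, 10.9 in decapping and 7.78 in nonsense-mediated decay. The order of the 45 genes by level per length was nearly the same in the lines (Spearman rho 0.97 over the 45 genes, a description).

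The chase asked how fast each mRNA is lost. The chase slope is the log2 change per hour of the labelled mRNA against the scaled labelled total, taken over both lines, so that it ranks mRNAs and is not an absolute decay rate. Of the 43 genes tested, 9 rose relative to that total (20.9%, where 29.9% of 13703 genes rose), 16 fell (37.2%, where 34.4% fell) and 18 did not pass. The rises are relative to the chosen total: with total counts as the scale 1 of the 43 rose and 28 fell, and with 9 glycolytic mRNAs held constant all 43 fell. Of all 13703 genes, 1875 rose and 7226 fell with total counts. With glycolytic mRNAs held constant 8 of all genes rose and 12098 fell. A change of scale shifts all genes nearly alike and so leaves ranks as they are by construction: the median member stood at percentile 46.6 of all slopes with TMM scaling and 46.3 with glycolytic mRNAs held constant. Where every gene with any count was kept, it stood at percentile 59.7, and CNOT4 moved from 5.26 to 16.5. The median slope was -0.07 for the 43 genes and -0.04 for all genes. Of the 16 falls, 11 passed in each of the 16 alternative settings, including each left-out library. Of the 9 rises, 0 passed in each setting, and 4 passed with each library left out in turn. The settings did not try falls and rises alike. Total counts and glycolytic mRNAs moved the median slope of all genes by -0.16 and -0.48. The largest upward shift was 0.03 (RLE scaling).

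**Figure D2:**
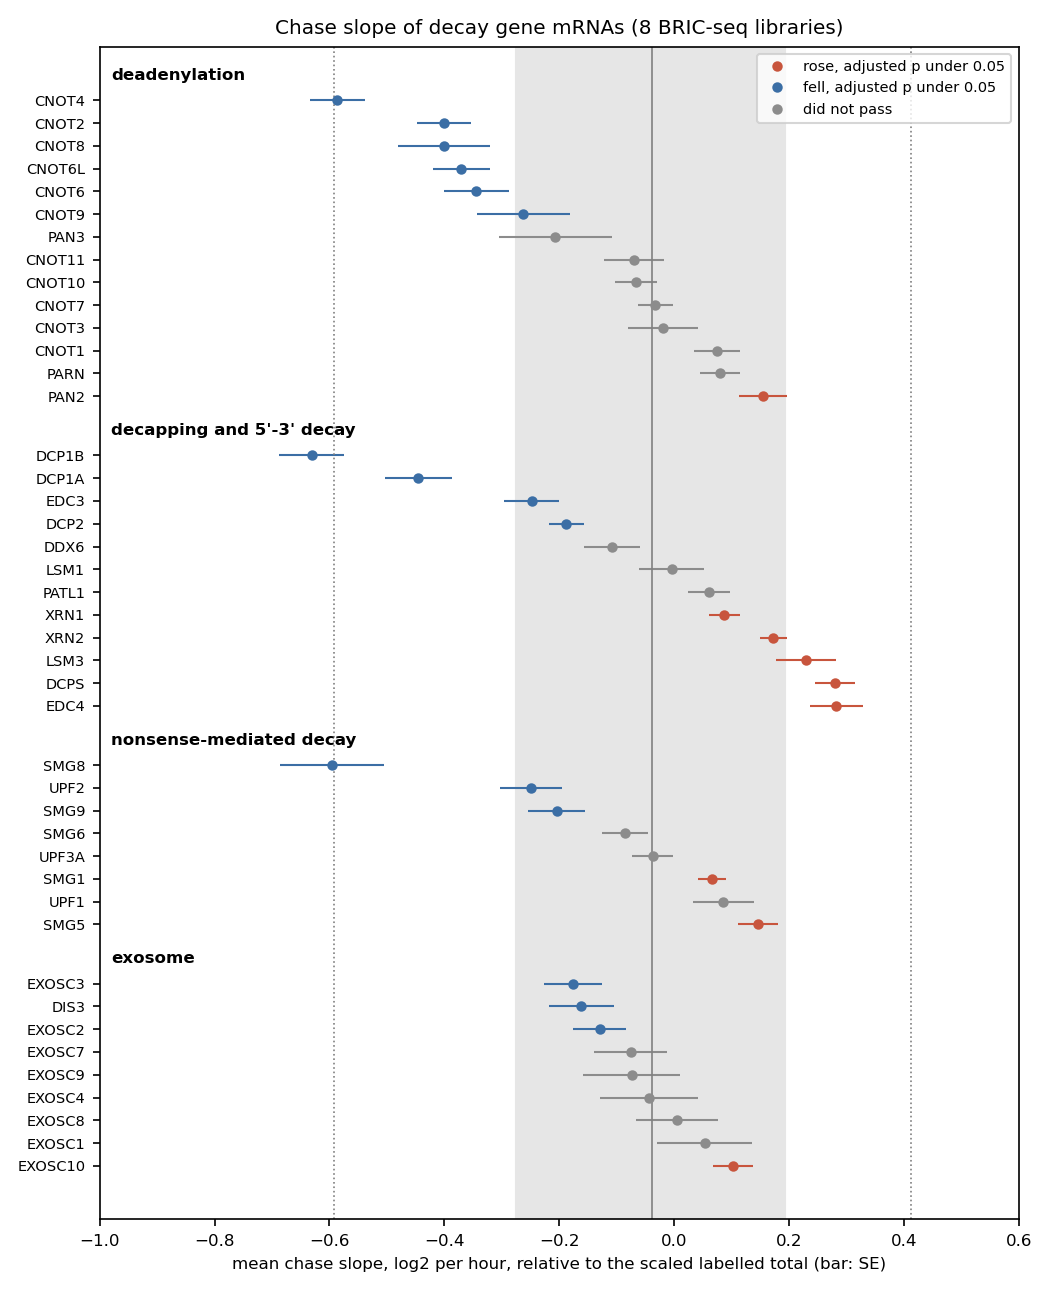
Mean chase slope (log2 per hour relative to the scaled labelled total, with SE bars) of the 43 tested genes by group; the grey band spans the middle quartiles of all genes, the solid line is their median at -0.04, and the dotted lines are their 5th and 95th percentiles. DCP1B, SMG8 and CNOT4 lie farthest to the left near the 5th percentile, EDC4 and DCPS farthest to the right, and the rises at the right turn into falls when glycolytic mRNAs are held constant.

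In deadenylation, 6 of 14 genes fell and 1 rose relative to the total. The share that fell was 42.9%, where 34.4% of all genes fell, and the 6 were CCR4-NOT subunits. CNOT4, a ubiquitin ligase of the complex (chromosome 7, positions 135361795 to 135510145, minus strand), stood at 76.5, 64.3, 21.1 and 6.23 CPM at 0, 1, 3 and 6 h in A375 and at 76.7, 69.6, 22.2 and 9.31 CPM in the MIR211 line. It kept 0.0814 of its 0 h value at 6 h in A375 and 0.121 in the MIR211 line, and its slope of -0.59 ± 0.05 log2 per hour (edgeR adjusted p = 2.65e-05) lay at percentile 5.26 of all genes. The curves of the 2 lines ran together to 3 h.

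CNOT2, which with CNOT3 forms the module next to the scaffold's C-terminal end, fell at each step, with 94.2, 51.8, 29.9 and 13.5 CPM in A375 and 98.1, 55.7, 31.0 and 21.1 CPM in the MIR211 line (slope -0.40 ± 0.05, edgeR adjusted p = 0.000154). CNOT3 itself had a slope of -0.02 and did not pass. CNOT8, a catalytic subunit of the Caf1 type, was at 23.8, 45.2, 28.6 and 8.64 CPM in A375 and at 41.3, 40.4, 18.6 and 6.13 CPM in the MIR211 line. It first rose in A375 and then fell below its start in both lines, and the slope was -0.40 ± 0.08 (edgeR adjusted p = 0.00248).

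The catalytic subunits of the CCR4 type fell as well. CNOT6L was at 35.6, 27.3, 15.3 and 5.63 CPM in A375 and at 32.4, 34.3, 23.8 and 9.80 CPM in the MIR211 line, with a slope of -0.37 ± 0.05 (edgeR adjusted p = 0.000311). Its paralog CNOT6 had a slope of -0.34 and the RNA-binding subunit CNOT9 one of -0.26, and both passed; the fall of CNOT9 was lost without the 6 h library of either line. The scaffold CNOT1, CNOT7, CNOT10, CNOT11, the adaptor PAN3 and the separate deadenylase PARN did not pass, with slopes between -0.21 (PAN3) and 0.08 (PARN). PAN2 rose relative to the total, with 29.1, 37.4, 55.5 and 80.2 CPM in A375 and 55.7, 57.5, 71.7 and 72.3 CPM in the MIR211 line, with a slope of 0.16 ± 0.04 (edgeR adjusted p = 0.00984) that was -0.33 with glycolytic mRNAs held constant and did not pass without the A375 6 h library.

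Among the 12 decapping genes tested, 4 fell and 5 rose relative to the total, and the members of the decapping enzyme went down. The share that fell was 33.3%, where 34.4% of all genes fell and 29.9% rose. DCP1B (chromosome 12, positions 1946053 to 2004535, minus strand) had the steepest slope of the 43 genes, with 41.5, 33.8, 10.5 and 4.42 CPM at 0, 1, 3 and 6 h in A375 and 26.9, 15.9, 4.83 and 1.47 CPM in the MIR211 line. Its slope was -0.63 ± 0.06 (edgeR adjusted p = 4.14e-05), at percentile 3.82 of all genes. The last MIR211 value rests on 6 counts, with an exact Poisson 95% interval of 2.20 to 13.1 counts that covers counting error only. DCP1A was at 188, 190, 78.6 and 30.5 CPM in A375 and at 187, 238, 152 and 38.0 CPM in the MIR211 line, a slope of -0.45 ± 0.06 (edgeR adjusted p = 0.000279). The catalytic subunit DCP2 and the enhancer EDC3 also fell, with slopes of -0.19 and -0.25.

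The other end of the range was held by genes of the same route. EDC4, the scaffold that joins DCP1 and DCP2, was at 6.77, 8.88, 17.5 and 21.5 CPM in A375 and at 6.25, 7.14, 12.9 and 19.8 CPM in the MIR211 line, 3.17 times its 0 h value at 6 h in both. DCPS, the enzyme that clears cap remnants after 3'-5' decay, was at 13.2, 15, 20.8 and 45.6 CPM in A375 and at 17.9, 18.2, 27.1 and 49.7 CPM in the MIR211 line. Every step went up in both lines for both genes, and the slopes were 0.28 ± 0.05 for EDC4 (edgeR adjusted p = 0.000917) and 0.28 ± 0.03 for DCPS (adjusted p = 0.000198), which became -0.20 and -0.20 with glycolytic mRNAs held constant. Their places among all genes, percentiles 84.0 and 83.7 with TMM scaling, were high, and that of DCPS was 83.6 with glycolytic mRNAs held constant.

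LSM3, a subunit of the LSM rings, was at 15.3, 10.1, 15.9 and 38.2 CPM in A375 and at 11.7, 10.3, 12.2 and 24.5 CPM in the MIR211 line, low at 1 h and highest at 6 h, with a slope of 0.23 ± 0.05 (edgeR adjusted p = 0.00448) that did not pass without the A375 6 h library. XRN2 (chromosome 20, positions 21303331 to 21389825, plus strand) was at 159, 191, 247 and 335 CPM in A375 and at 105, 127, 173 and 215 CPM in the MIR211 line. Each step was up in both lines, and the slope was 0.17 ± 0.02 (edgeR adjusted p = 0.000339). XRN1 had a slope of 0.09 and passed, though not without the 0 h library of either line, and all 3 of these slopes were below 0 with glycolytic mRNAs held constant. DDX6, the decapping activator PATL1 and LSM1, the subunit that sets the cytoplasmic LSM ring apart, did not pass, with slopes of -0.11, 0.06 and -0.00. LSM2 had 8, 4, 25 and 21 counts in A375 and 0, 0, 9 and 10 counts in the MIR211 line and was not tested.

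**Figure D3:**
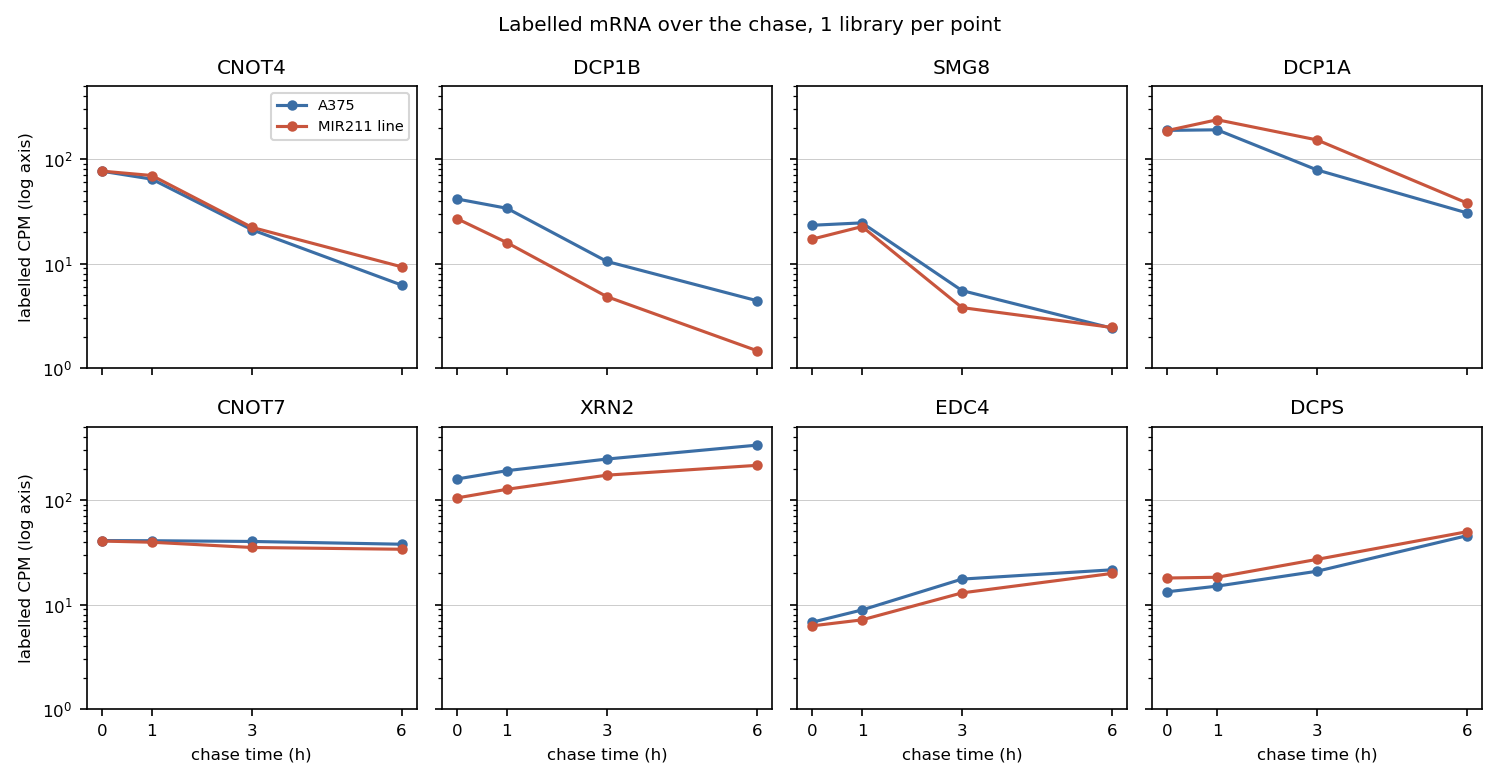
Labelled CPM (log axis) against chase time for 8 decay genes, 1 library per point, A375 in blue and the MIR211 line in red. CNOT4, DCP1B, SMG8 and DCP1A in the upper row go down in both lines, CNOT7 stays between 33.8 and 40.9 CPM, and XRN2, EDC4 and DCPS go up relative to the scaled total, a rise that becomes a fall with glycolytic mRNAs held constant.

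In nonsense-mediated decay, 3 of 8 genes fell (37.5%, where 34.4% of all genes fell) and 2 rose relative to the total (29.9% of all genes rose). SMG8 (chromosome 17, positions 59209400 to 59215239, plus strand) was at 23.3, 24.5, 5.52 and 2.41 CPM in A375 and at 17.1, 22.6, 3.79 and 2.45 CPM in the MIR211 line, not lower at 1 h than at 0 h and low from 3 h on. Its slope was -0.60 ± 0.09 (edgeR adjusted p = 0.000577), at percentile 4.89 of all genes, and the 6 h values rest on 12 and 10 counts. SMG9 and UPF2, the bridge between UPF1 and UPF3, fell with slopes of -0.20 and -0.25, and the fall of SMG9 was lost without the MIR211 line 6 h library.

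SMG5 rose relative to the total, with 24.7, 31.5, 36.0 and 42.6 CPM in A375 and 30.7, 27.6, 41.7 and 58.3 CPM in the MIR211 line, a slope of 0.15 ± 0.03 (edgeR adjusted p = 0.00555) that was -0.33 with glycolytic mRNAs held constant. SMG1 had a slope of 0.07, which passed with TMM scaling and not with 5 of the 8 libraries left out in turn. The helicase UPF1, the exon-junction adaptor UPF3A and SMG6 did not pass, with slopes of 0.09, -0.04 and -0.09.

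The exosome genes had the narrowest range, from -0.18 to 0.10 log2 per hour. Of the 9 tested, 3 fell (33.3%, where 34.4% of all genes fell) and 1 rose (29.9% of all genes rose). EXOSC3, a cap subunit, was at 38.0, 21.8, 15.9 and 12.1 CPM in A375 and at 31.3, 23.6, 22.4 and 19.4 CPM in the MIR211 line, down at each step in both, with a slope of -0.18 ± 0.05 (edgeR adjusted p = 0.0136). The exonuclease DIS3 had a slope of -0.16 and EXOSC2 one of -0.13. All 3 calls were lost without the A375 6 h library, and those of DIS3 and EXOSC2 without 4 and 5 of the 8 libraries left out in turn. EXOSC10, the nuclear exonuclease, rose relative to the total with a slope of 0.10 that was -0.38 with glycolytic mRNAs held constant and did not pass without 4 of the 8 libraries. EXOSC1, EXOSC4, EXOSC7, EXOSC8 and EXOSC9 did not pass, with slopes between -0.08 and 0.05, and EXOSC4 had only 10 and 9 counts at 6 h. EXOSC5, with 0, 5, 13 and 16 counts in A375 and 5, 0, 6 and 11 counts in the MIR211 line, was not tested.

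The ratio of 2 mRNAs in the same library does not depend on the scale, so 4 pairs of paralogs or like enzymes are described that way. The pairs were chosen with the slopes of their members known, so no test is given. CNOT8 over CNOT7, the alternative Caf1-type subunits, was 0.584, 1.11, 0.712 and 0.231 at 0, 1, 3 and 6 h in A375, and in the MIR211 line it was 1.02, 1.03, 0.531 and 0.184. In both lines the ratio was lowest at 6 h, and the slope of the log2 ratio was -0.36 per hour. CNOT7 alone hardly moved, at 40.9, 40.8, 40.1 and 37.8 CPM in A375 and 40.5, 39.5, 35.2 and 33.8 CPM in the MIR211 line.

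XRN2 over XRN1, the nuclear over the cytoplasmic 5'-3' exonuclease, was 1.05, 0.969, 1.27 and 1.54 in A375, and in the MIR211 line 0.590, 0.573, 0.658 and 0.740. The ratio dipped at 1 h and then went up in both lines, with a slope of 0.08 per hour, and at every time it was lower in the MIR211 line. DCP1B over DCP1A was 0.221, 0.178, 0.134 and 0.148 in A375, and in the MIR211 line 0.144, 0.0671, 0.0322 and 0.0418, with a slope over both lines of -0.18 per hour. CNOT6L over CNOT6 was 0.666, 0.389, 0.336 and 0.393 in A375, and in the MIR211 line 0.923, 0.925, 1.19 and 1.03. The slope over both lines was -0.03 per hour, with -0.09 in A375 and 0.03 in the MIR211 line. That ratio was higher in the MIR211 line at all 4 times.

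The next comparison asked whether the decay mRNAs are lost at a different pace in the 2 lines. In A375 alone, 17 of the 43 genes passed where 47.2% of all genes did, 5 up relative to the total (23.0% of all genes) and 12 down (24.2%). In the MIR211 line 16 passed where 42.9% of all genes did, 4 up (21.9%) and 12 down (21.0%). With total counts as the scale the calls were 0 up and 20 down in A375 and 0 up and 25 down in the MIR211 line, and with glycolytic mRNAs held constant 0 up and 42 down in each. Both changes of scale shift all genes nearly alike, so these counts are not particular to the decay genes. Without the 6 h library of the line, none passed in that line, and 0 of all genes did. The same 12 genes passed the same way in both lines (27.9%, where 35.4% of all genes did), 9 of them down (CNOT2, CNOT4, CNOT6, CNOT6L, DCP1A, DCP1B, DCP2, EDC3 and SMG8) and 3 up relative to the total (DCPS, EDC4 and XRN2, each below 0 with glycolytic mRNAs held constant). No gene passed in opposite directions.

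The difference of the slopes, MIR211 line minus A375, passed for 0 of the 43 genes and for 0% of all genes in edgeR, and DESeq2 called 0 of the 43 and 13 genes in all. At an unadjusted p under 0.05 there were 1 of the 43 genes and 527 of all genes. The 43 differences lay between -0.24 and 0.18 log2 per hour with a median SE of 0.10. Over all genes they ran from -5.76 to 2.43 and none passed in edgeR, so differences larger than that error could also go uncalled. For the 43 genes, a count of 0 therefore does not show equal slopes. The smallest p was that of PAN2, which rose 2.75 times over 6 h in A375 and 1.30 times in the MIR211 line, a slope difference of -0.17 ± 0.06 (edgeR unadjusted p = 0.0310, adjusted p = 1). DDX6 was at 209, 222, 183 and 96.2 CPM in A375 and at 213, 276, 306 and 207 CPM in the MIR211 line. It ended at 0.460 of its start in A375 and at 0.970 in the MIR211 line, with a slope difference of 0.18 ± 0.08 (unadjusted p = 0.0671). EXOSC3, with its values above, kept 0.317 of its start in A375 and 0.619 in the MIR211 line, a difference of 0.15 ± 0.09. CNOT9 was at 20.9, 15.9, 21.5 and 9.64 CPM in A375 and at 30.7, 37.9, 26.0 and 6.37 CPM in the MIR211 line, a difference of -0.24 ± 0.15. The slope differences of the 8 genes with a miR-211 seed match lay between -0.24 and 0.08, and 3 were below 0.

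With times matched, the labelled RNA itself differed between the lines for 11 of the 43 genes. The 3 that were higher in the MIR211 line (13.6% of all genes were higher) and the 8 that were lower (12.3% were lower) came from all 4 groups. With glycolytic mRNAs held constant the calls were 0 higher and 26 lower. That change of scale shifts all genes nearly alike, so this count is not particular to the decay genes. The count was 4 without the 1 h library of A375, 4 without its 3 h library, 4 without the 1 h library of the MIR211 line and 6 without its 3 h library, and XRN2 alone passed under every setting tried. The MIR211 line was lower at all 4 times for 18 of the 43 genes (41.9%, where 25.3% of all genes were) and higher at all 4 for 8 (18.6%, where 22.9% were).

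XRN2, at 159, 191, 247 and 335 CPM in A375 and 105, 127, 173 and 215 CPM in the MIR211 line, was lower in the latter at each time, and the log2 difference was -0.59 ± 0.07 (edgeR adjusted p = 0.00246). Its RNA-seq difference was -0.09 ± 0.19. XRN1, at 152, 197, 194 and 218 CPM in A375 and 178, 221, 263 and 290 CPM in the MIR211 line, went the other way at each time, with a log2 difference of 0.31 ± 0.08 (edgeR adjusted p = 0.0341), and did not pass without any one of the 8 libraries and was -0.17 with glycolytic mRNAs held constant.

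SMG1 (chromosome 16, positions 18804860 to 18926408, minus strand) had the smallest p. It was at 694, 834, 780 and 904 CPM in A375 and at 936, 1262, 1205 and 1467 CPM in the MIR211 line, higher at each time, a log2 difference of 0.59 ± 0.07 (edgeR adjusted p = 0.00222) that passed with each library left out and did not pass with glycolytic mRNAs held constant. Its RNA-seq difference was 0.33 ± 0.23, with 138 and 104 CPM in A375 and 169 and 136 CPM in the MIR211 line, which overlapped. The genome holds near-identical copies of SMG1, and 7 SMG1P genes in the tables could share its reads. Summed over SMG1 and the 7 copies, the labelled values were 1170, 1297, 1073 and 1133 CPM in A375 and 1382, 1784, 1524 and 1733 CPM in the MIR211 line, still higher in the MIR211 line at each time. The 7 copies alone went down over the chase, 475 to 229 CPM in A375, 446 to 266 CPM in the MIR211 line, while SMG1 did not.

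UPF3A was at 54.5, 54.5, 44.7 and 52.4 CPM in A375 and at 38.3, 30.9, 25.9 and 28.9 CPM in the MIR211 line, a log2 difference of -0.74 ± 0.11 (edgeR adjusted p = 0.00621), and CNOT6 was at 53.6, 70.2, 45.7 and 14.5 CPM and at 35.1, 37.1, 19.998 and 9.56 CPM, a difference of -0.84 ± 0.14 (edgeR adjusted p = 0.00885). The MIR211 line was below A375 at each time for both. In RNA-seq the same genes differed by -0.17 ± 0.22 and -0.08 ± 0.19.

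PATL1, at 115, 130, 154 and 129 CPM in A375 and 140, 165, 236 and 208 CPM in the MIR211 line, was higher by 0.48 ± 0.10 (edgeR adjusted p = 0.0168), a call that was lost with glycolytic mRNAs held constant. CNOT3, at 10.6, 15.6, 17.2 and 14.7 CPM in A375 and 8.43, 5.75, 8.10 and 4.66 CPM in the MIR211 line, had the largest difference, -1.13 ± 0.25 (edgeR adjusted p = 0.0204), a call that was lost without any one of 6 of the 8 libraries. LSM1, at 8.83, 9.94, 11.9 and 9.24 CPM and at 5.44, 3.57, 5.69 and 4.17 CPM, differed by -1.09 ± 0.20 (edgeR adjusted p = 0.0104). Both low-count genes were below A375 at all 4 times, and the MIR211 6 h values rest on 19 and 17 counts. In RNA-seq, CNOT3 and LSM1 differed by 0.08 ± 0.18 and 0.05 ± 0.17.

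DCP1B was lower in the labelled RNA (log2 difference -1.01 ± 0.18, edgeR adjusted p = 0.0106), and in RNA-seq both MIR211 libraries were higher, 14.7 and 13.0 CPM against 11.3 and 8.84 CPM (0.46 ± 0.22, edgeR adjusted p = 0.559). EXOSC8 was lower in both assays: its labelled values were 28.3, 12.9, 13.9 and 24.1 CPM in A375 and 15.8, 8.13, 7.93 and 13.7 CPM in the MIR211 line (-0.78 ± 0.14, edgeR adjusted p = 0.00916), lost without the A375 3 h library. SMG6, at 49.8, 38.7, 27.5 and 30.7 CPM and at 24.5, 24.0, 24.0 and 19.1 CPM, differed by -0.64 ± 0.16 (edgeR adjusted p = 0.0312, lost without any one of 6 of the 8 libraries) and by 0.07 ± 0.18 in RNA-seq. The calls of DCP1B and LSM1 were each lost without any one of 4 libraries, those of CNOT6 and PATL1 without any one of 3, and that of UPF3A without the A375 3 h library. Of the 11 genes, 7 had the same sign in RNA-seq and 4 the other sign (CNOT3, DCP1B, LSM1 and SMG6). Whether each RNA-seq difference differed from the labelled one was not tested, since the 2 tables were normalized separately.

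**Figure D4:**
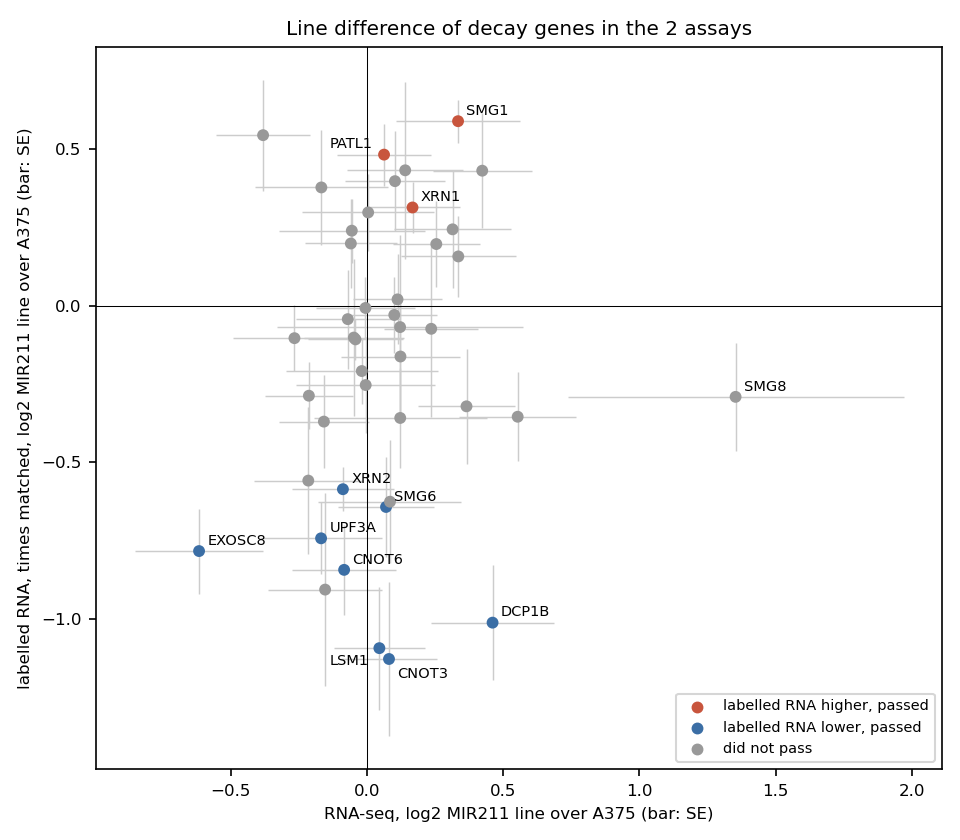
Log2 difference between the MIR211 line and A375 in labelled RNA with times matched (vertical, SE bars) against that in RNA-seq (horizontal, SE bars) for the 43 genes. The labelled differences spread from -1.13 to 0.59 while most RNA-seq differences lie within 0.25 of 0; SMG8 at the far right rests on 1 library, and XRN1 turns below 0 in labelled RNA with glycolytic mRNAs held constant.

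Across the 43 genes the labelled and RNA-seq differences had a Pearson correlation of 0.10, compared with 0.41 over 12677 genes. The Spearman correlations lay closer together, at 0.20 and 0.25. The labelled difference rose with the log2 length of the mRNA (Pearson 0.45 over the 43 genes and 0.03 over 13552 genes). These values are descriptions over genes that share the same libraries.

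A further pattern concerned the labelled RNA at 0 h set against RNA-seq. The log2 of labelled CPM over RNA-seq CPM spread widely among the decay genes, from -4.01 for EXOSC4 to 2.69 for CNOT4 in A375 and from -4.10 for EXOSC4 to 2.67 for PATL1 in the MIR211 line. Since the 2 tables were scaled separately, only the order of the genes has a meaning. CNOT4, SMG1, PATL1, DCP1B and DCP1A stood highest in A375, at 2.69, 2.52, 2.46, 2.05 and 1.77, and the percentile of CNOT4 among 10394 protein-coding genes was 97.5. EXOSC4, EDC4, SMG5, EXOSC9 and UPF1 stood lowest, at -4.01, -3.11, -2.82, -2.78 and -2.61. The order was much the same in the MIR211 line (Pearson r 0.94 over 43 genes, and 0.86 over all 10394 genes).

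The ratio went up with the log2 length of the mRNA, with Pearson r 0.43 in A375 and 0.49 in the MIR211 line over the 43 genes, and 0.46 and 0.47 over all 10394 genes. EXOSC4, with the shortest mRNA of the 43 (842 bases), had 43.8 to 57.0 CPM in RNA-seq and 1.19 to 3.26 CPM in labelled RNA. SMG1, with the longest mRNA of the 45 (16062 bases), was at 104 to 169 CPM in RNA-seq and at 694 to 1467 CPM in labelled RNA. The part of length in the differences between genes was not tested further. The chase slope of a gene compares the same gene over time. Over the 43 genes it had a Pearson correlation of 0.02 with log2 length (-0.14 over 13552 genes). With the A and T share of the 3' UTR the correlation was -0.34 (-0.22 over 10782 genes).

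**Figure D5:**
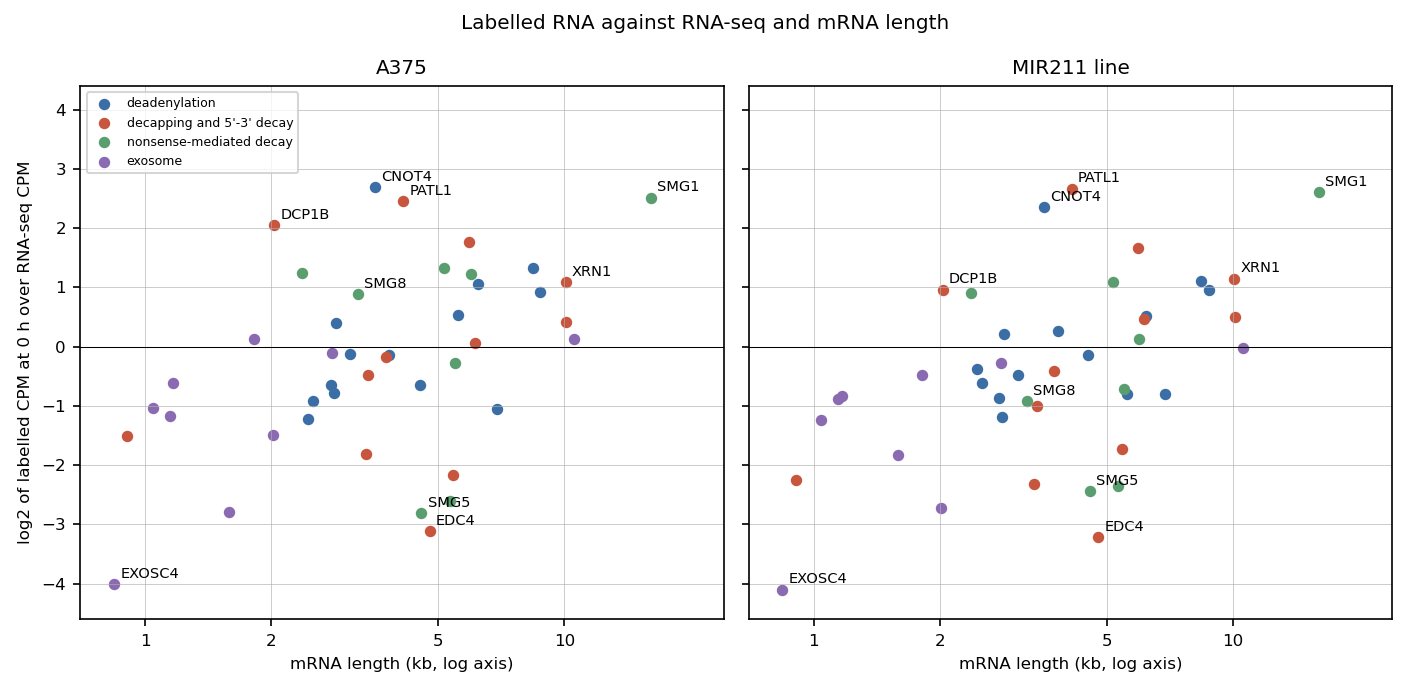
Log2 of labelled CPM at 0 h over mean RNA-seq CPM against mRNA length (kb, log axis) for the 43 decay genes, coloured by group, in A375 and the MIR211 line. Points climb with length (Pearson r 0.43 and 0.49), from EXOSC4 near -4 to SMG1 near 2.5, while EDC4 and SMG5 lie low and CNOT4, PATL1 and DCP1B high for their length.

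Other genes of the pathway, 45 of them and 42 tested in BRIC-seq, gave the same counts in RNA-seq, 0 passing. Their smallest p-values belonged to DHX34, a helicase of nonsense-mediated decay (-0.48 ± 0.18), PNRC1, a decapping cofactor (0.50 ± 0.19), and the exon-junction subunit MAGOH (-0.46 ± 0.19). In the chase, 14 of the 42 rose relative to the total (29.9% of all genes did) and 13 fell (34.4% did). The poly(A)-binding proteins PABPC1 and PABPC4 rose with slopes of 0.37 and 0.25, and SKIC3, a subunit of the Ski complex that feeds mRNA into the exosome, with 0.32, each relative to the TMM-scaled total. In labelled RNA 6 of the 42 were lower in the MIR211 line (12.3% of all genes were) and 0 higher (13.6% were), led by the ribosome rescue factor PELO (-1.64 ± 0.23), RNPS1 (-0.74 ± 0.13) and the uridylyltransferase TUT4 (-0.47 ± 0.09), and no slope difference passed.

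Exons of 25 of the 45 genes overlap those of another annotated gene, and for 14 of them that gene is protein-coding. The strand setting of the counting is not given in the sources used here, so reads of such neighbours may be included, for instance CCNA2 opposite EXOSC9, FAXDC2 opposite CNOT8, LENG1 opposite CNOT3, BAG4 opposite LSM1, SUPT20H opposite EXOSC8 and a protein-coding entry on the same strand as SMG8. DCP1B, CNOT4, DCP1A, UPF3A and XRN1 have no such overlap.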

How the data were processed

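The authors deposited 2 tables of unnormalized read counts per Ensembl gene, 1 for RNA-seq and 1 for BRIC-seq. Reads were aligned with HISAT2 2.1.0 and handled with StringTie, per the submitters' processing notes. Those notes name hg19 and the series' design text hg38, so coordinates and lengths come from GENCODE 44 (hg38) by gene ID. Which options the counting used was not given in the sources used here. The 1 row that names no gene (at most 0.00122% of a BRIC-seq library) was left out.

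Counts were tested with edgeR 4.0.16 (R 4.3.3): quasi-likelihood F test, TMM scaling, filterByExpr by line (minimum count 10, total 15), Benjamini-Hochberg adjustment over all genes tested, threshold 0.05. Residual degrees of freedom were 2 (RNA-seq), 5 (mean slope, hours with line as covariate), 4 (a slope per line) and 3 (line difference, time as factor). With 1 library per line and time, times stand in for replicates. The BRIC-seq p-values therefore measure a change against the departure of the libraries from the fitted model. That model is a straight line over the hours, or a line difference that is the same at each time. The RNA-seq p-values use the spread between the 2 libraries of a line. Either spread may be technical, since independent cultures are not stated. A standard error is the size of the log2 value over the root of F. CPM uses TMM-scaled library sizes, and pair ratios used a pseudocount of 0.5. DESeq2 1.42.0, other scalings and filters and left-out libraries were alternatives. Scripts were tested on simulated data.

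Named genes were, with values in every library, the 6 smallest p in RNA-seq, the 6 most positive and 6 most negative slopes, every passing gene or the 4 smallest p for the line contrasts, and the highest and lowest per length of each group, plus 3 other pathway genes per comparison. CNOT7, XRN1, EXOSC9 and the labelled to RNA-seq ratios were added after their values were seen. The members and lists were chosen with earlier results of these data known.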

Additional observations from a re-analysis of the deposited data

Results flagged for a closer look

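The BRIC-seq table has 1 row that names no gene, which entered no test and served only as an alternative scale. It held 3, 9, 31 and 80 counts at 0, 1, 3 and 6 h in A375 and 3, 10, 36 and 81 counts in the MIR211 line, and it drew attention because the 6 h values, up to 81, lie above the limit of 3 counts that a count of 0 allows. Its share of the library was 0.000112% at 0 h and 0.0011% at 6 h in A375, while in the MIR211 line it was 0.000108% and 0.00122%. What the row counts was not given in the sources used here.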

How the results depend on the processing

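The counts of decay genes passing in RNA-seq (0) and in the slope difference (0) were 0 in every alternative run. The letters a and b of the RNA-seq libraries only share a letter: deviations of the a libraries had a correlation of 0.36 between the lines over 12294 genes, with 2 pairs. With a replicate block 0 of the 45 genes passed, and 192 genes in all compared with 73. Of the mean slopes, 9 rose and 16 fell; with total counts 1 and 28, with glycolytic mRNAs held constant 0 and 43, and with the row that names no gene held constant, an alternative chosen after seeing the data, 0 and 43. Over all genes 53.5% of the slopes that passed fell, 79.4% with total counts, 99.9% with glycolytic mRNAs and 100% with that row, and these settings moved the median slope of all genes by -0.16, -0.48 and -0.71. In A375 17 genes passed, with 11 when any count was kept, 42 with glycolytic mRNAs and 43 with the row. In the MIR211 line 16 passed, with 25 with total counts, 7 when any count was kept, 42 with glycolytic mRNAs and 43 with the row. The labelled line difference passed for 11 genes, 3 higher and 8 lower. It passed for 26, all lower, with glycolytic mRNAs held constant, a scale that shifts all genes nearly alike. Leaving out 1 library gave 5 to 11 rises, 12 to 18 falls, 0 to 18 genes in A375, 0 to 18 in the MIR211 line and 4 to 11 in the labelled line difference. The 5 rises came without the A375 6 h library.

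Of the 9 slopes that passed as rises, those that turned below 0 with total counts were PAN2 (-0.0097), XRN1 (-0.076), SMG1 (-0.10), SMG5 (-0.018) and EXOSC10 (-0.060). Slopes above 0 that had not passed are left out of these lists. With glycolytic mRNAs held constant they were PAN2 (-0.33), DCPS (-0.20), EDC4 (-0.20), XRN1 (-0.40), XRN2 (-0.31), LSM3 (-0.25), SMG1 (-0.42), SMG5 (-0.33) and EXOSC10 (-0.38). With the row held constant they were PAN2 (-0.56), DCPS (-0.43), EDC4 (-0.42), XRN1 (-0.62), XRN2 (-0.54), LSM3 (-0.48), SMG1 (-0.64), SMG5 (-0.57) and EXOSC10 (-0.61). The labelled line difference of XRN1 was -0.17 with glycolytic mRNAs held constant. A common shift of scale moves every slope by the same amount, so the direction of a slope can depend on it and its rank does not. By this construction DCPS stood at percentile 83.7 with TMM scaling and at 83.6 with glycolytic mRNAs held constant. Depth limits the BRIC-seq values of EXOSC4, SMG8, DCP1B, LSM2 and EXOSC5.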
